A study of Mus musculus with 4 samples.

Results

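The Egr, Nr4a and Ier genes and Srf are serum-responsive early genes outside the AP-1 family, and their transcripts were followed in MMTV-Myc cells. These are mouse mammary tumour cells whose Myc transgene is driven by a promoter of mouse mammary tumour virus (MMTV). Members were the rows of the 2 deposited tables whose gene symbol is Egr1, Egr2, Egr3, Nr4a1, Nr4a2, Nr4a3, Ier2, Ier3, Ier5 or Srf. All 10 had 1 row each among the 22440 rows of the bulk and mammosphere table, and 8 had 1 row each among the 11708 rows of the knockdown table. Egr2 and Nr4a3 were not analysed here in the knockdown comparison.

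Polyadenylated RNA was sequenced from 4 cultures, 1 library in each of 4 groups, and all 4 carry the Myc transgene. Bulk cells, labelled wild type and day 0, grew in medium with 2% serum and 10 µg/ml insulin. Mammosphere cells, labelled wild type and day 20, grew unattached with EGF and bFGF at 20 ng/ml each and were dissociated and passaged every 4 days. The shRNA groups, labelled wild type (shLuc) and Cbx8 knockdown (sh68), were infected with lentivirus and kept under puromycin at 2 µg/ml. Another label of the control calls its hairpin scrambled. The growth form of the shRNA cultures and the mouse strain are not given in the sources used here. There were no replicates, so every difference compares 2 libraries and has no estimate of spread, and no test across samples was possible. The files hold no counts, and the depth of each library is unknown.

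As background, immediate early genes are transcribed within minutes of a growth factor, serum or stress signal, without new protein synthesis, and their transcripts are short-lived. Growth factor receptors signal through Ras and the ERK MAP kinases to ternary complex factors such as Elk1, which sit with SRF, the serum response factor, on the CArG box. The kinase cascade also acts on CREB, which binds the cyclic AMP response element (CRE). SRF works with a second class of partners, the actin-regulated MRTF coactivators, on cytoskeletal genes. Egr1, Egr2 and Egr3 are zinc finger factors, Nr4a1, Nr4a2 and Nr4a3 are orphan nuclear receptors, and the Ier products are small regulators with no shared DNA-binding domain.

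The promoters are shown because the members with an entry hold the motifs just named in different numbers. RefSeq promoter entries (GRCm38.p6) matched 7 of the 10 members, the exceptions being Egr1, Egr3 and Ier2. The 250 bases before each start site were searched on both strands. Srf held 2 CArG boxes. Egr2 has 5 listed starts, 4 of which had a CArG box in this window, and 3 of these windows overlap and share a box, which leaves 2 distinct boxes, printed at the second and the third start. The Nr4a genes held no CArG box but 4 copies each of TGACG, the core of the CRE, which reads CGTCA where it lies on the other strand. Capitals mark the CArG boxes in Srf and Egr2 and the CRE cores in the Nr4a genes, and each line runs 5′ to 3′ along the gene's strand.
Srf, chr17:46556205-46556254, minus strand: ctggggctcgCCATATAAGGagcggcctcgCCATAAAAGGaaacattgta
Egr2 at the second start, chr10:67537484-67537513, plus strand: cggatcttctCCTTTTTTGGaaagtctcgg
Egr2 at the third start, chr10:67537787-67537816, plus strand: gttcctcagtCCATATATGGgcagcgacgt
Nr4a1, chr15:101266603-101266820, plus strand: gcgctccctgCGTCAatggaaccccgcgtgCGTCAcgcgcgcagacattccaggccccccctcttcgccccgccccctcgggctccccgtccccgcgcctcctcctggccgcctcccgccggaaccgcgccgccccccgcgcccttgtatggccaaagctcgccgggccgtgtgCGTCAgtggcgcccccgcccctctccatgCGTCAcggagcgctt
Nr4a2, chr2:57124100-57124213, minus strand: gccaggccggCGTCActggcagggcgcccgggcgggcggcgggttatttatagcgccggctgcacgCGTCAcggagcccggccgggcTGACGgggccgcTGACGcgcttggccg
Nr4a3, chr4:48045064-48045172, plus strand: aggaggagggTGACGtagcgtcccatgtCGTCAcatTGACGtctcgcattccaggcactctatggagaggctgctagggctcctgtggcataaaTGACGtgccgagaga

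A CArG box occurred in 1.62% of 27025 genes' promoters, and 2 or more in 5 genes, Srf among them. At least 1 TGACG occurred in 19.8% of genes and 4 or more in 44 genes (0.163%), 3 of which are Nr4a1, Nr4a2 and Nr4a3. A full palindrome TGACGTCA holds 2 overlapping copies of TGACG. It occurred in 1.77% of genes and in no member. Egr2 held 2 CRE cores before the third start, and Srf held 1. The EGR motif GCGNGGGCG, found in 5.33% of genes, occurred once each in Nr4a1, Nr4a2 and Srf. The ETS core CCGGAA (13.6% of genes) occurred in Egr2, Nr4a1 and Srf, and TATAAA (14.3%) in Nr4a2 and Srf. The AP-1 site TGACTCA and the NR4A site AAAGGTCA had no match in the 7 promoters, and Ier3 and Ier5 had no match to any of the 8 motifs. These matches are descriptions of letters in a short window, not of bound sites.

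**Figure D1:**
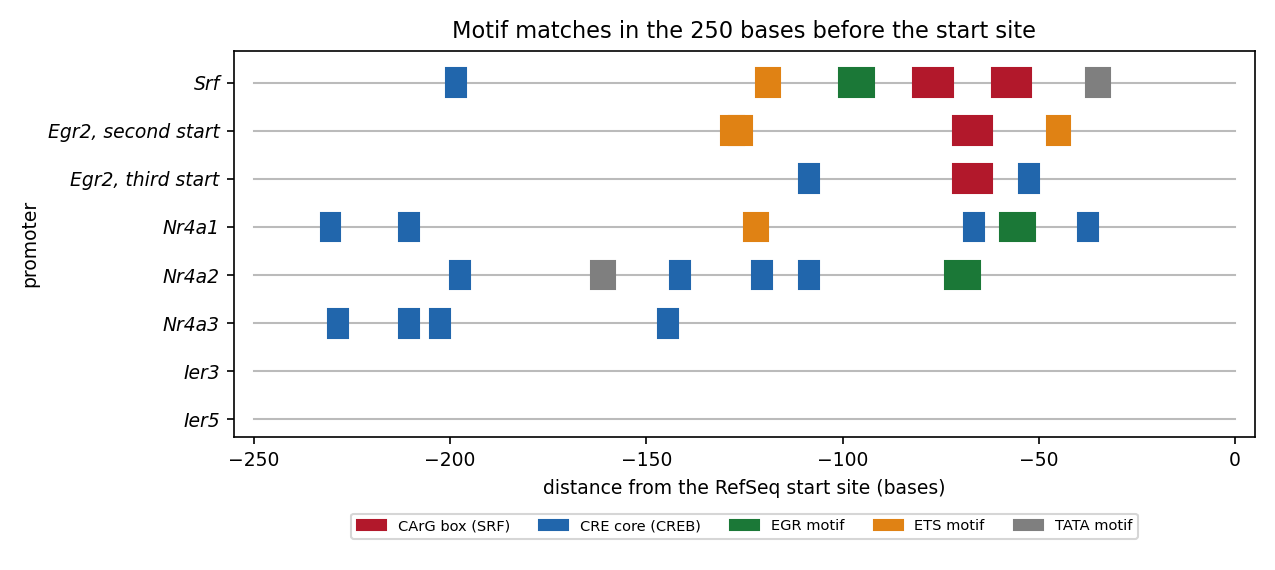
Motif matches in the 250 bases before the RefSeq start site, with distance from the start in bases on the horizontal axis and 1 row per promoter (Egr2 at the second and the third start). The 3 Nr4a promoters carry 4 CRE cores each, Srf carries 2 CArG boxes, and Ier3 and Ier5 carry none of the 5 motifs drawn.

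All 10 members were at least 2-fold lower in the mammosphere library than in the bulk library. Changes are log2 ratios of FPKM with 1 FPKM added to each value, on which the change of low genes comes out too small, and FPKM is the authors' read level scaled to transcript length and library size. Of 11603 rows with 1 FPKM or more in either library, 17.3% were at least 2-fold lower and 3.54% at least 2-fold higher. The median over the 10 members was −4.20, against −0.24 over those rows. The Egr and Nr4a genes had the 6 largest differences with 1 FPKM added, and all 6 were at least 16-fold lower, a size reached by 1% of the rows. With 5 FPKM added, Egr2 (−2.52), Egr3 (−3.23), Nr4a2 (−3.39) and Nr4a3 (−2.31) fell short of 16-fold, and Ier5 (−2.50) lay beyond Nr4a3. The whole table leaned to lower values in mammospheres, with a median of −0.19 for rows at 1 FPKM or more in both libraries. After centring on the median gene, the members' changes ran from −5.71 to −1.23 and all 10 were still past 2-fold, while Egr2 (−3.84) was no longer past 16-fold.

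Among the Egr factors, Egr1 was at 430.5 FPKM in bulk and 10.04 in mammosphere cells, a log2 change of −5.29 (42.9-fold as a plain ratio). Egr1, which activates growth and stress genes, was the 144th highest of all rows in the bulk library and the 5650th in the mammosphere library. Egr2 (mm9 chromosome 10, 67000616 to 67004936), also known from myelination and lymphocyte tolerance, was at 28.4 FPKM in bulk and 0.804 in mammosphere cells, a change of −4.03. Egr3 (chromosome 14, 70477251 to 70479964) was at 57.2 and 1.61 FPKM, a change of −4.48. The 3 genes differed by like factors, 42.9-fold, 35.3-fold and 35.6-fold as plain ratios. Egr1 accordingly made up 83.4% of the summed Egr FPKM in bulk cells and 80.6% in mammospheres. In the authors' deposited table, q was 1.62e-13 for Egr1, 2.8e-09 for Egr2 and 2.34e-10 for Egr3.

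Of the Nr4a receptors, Nr4a1 (chromosome 15, 101097276 to 101105225), known as Nur77, had the largest log2 change of any member with 1 FPKM added. It was at 515 FPKM in bulk and 7.67 in mammosphere cells, a log2 change of −5.90, and 19 of the 11603 rows lay lower. Nr4a2 (chromosome 2, 56959636 to 56976414), or Nurr1, was at 55.1 and 0.731 FPKM, a change of −5.02. As plain ratios, which add nothing, Nr4a2 was 75.3-fold and Nr4a1 67.2-fold lower, so the order of the receptors depends on the value added. Nr4a3 (chromosome 4, 48064119 to 48096224), or Nor1, was at 19.7 FPKM in bulk and 0.0044 in mammosphere cells, a change of −4.37. Both receptors were below 1 FPKM in mammospheres. The Nr4a3 row was not tested by the authors, and its mammosphere value is too small to give a plain ratio a meaning without the depth. Nr4a1 made up 87.3% of the summed Nr4a FPKM in bulk cells and 91.2% in mammospheres. The sum itself was 589.8 FPKM in bulk and 8.40 in mammosphere cells, 70.2-fold apart, against 41.5-fold for the Egr sum.

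The Ier genes were lower in mammospheres by smaller plain ratios than the Egr and Nr4a genes, and Ier2 and Ier3 stayed abundant. Ier2 (chromosome 8, 87185229 to 87186751), a nuclear regulator of early transcription, was at 175 FPKM in bulk and 39.7 in mammosphere cells, a log2 change of −2.12. Ier3 (chromosome 17, 35958657 to 35959856), also called IEX-1, acts on cell survival and ERK signalling. It was at 401.6 and 150.2 FPKM, the smallest change of the 10 at −1.41. Ier5 (chromosome 1, 156943496 to 156946766), which acts with heat shock factor 1, was at 82.3 and 10.5 FPKM, a change of −2.86. The summed Ier level was 3.29-fold lower in mammospheres, so Ier3 made up 60.9% of the Ier sum in bulk and 74.98% in mammosphere cells while its own level was lower. The authors' deposited table gave q = 0.00183 for Ier2, 2.52e-06 for Ier5 and 0.0916 for Ier3.

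Srf (chromosome 17, 46683787 to 46693111), the factor that binds the CArG box, was at 57.5 FPKM in bulk and 16.6 in mammosphere cells. This was a log2 change of −1.73 (3.46-fold as a plain ratio), with q = 0.0115 in the authors' deposited table. In all, 8 members had a q under 0.05 there, where 10.2% of the 4045 tested rows were lower at that limit.

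**Figure D2:**
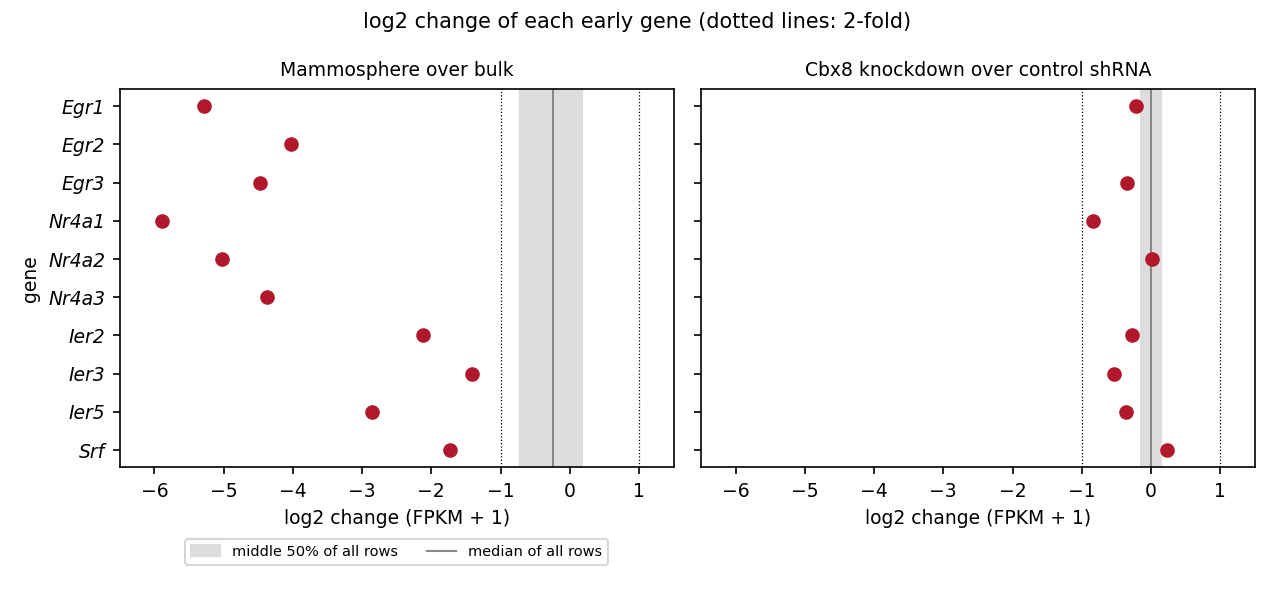
The log2 change of FPKM + 1 for each member (points), mammosphere over bulk on the left and Cbx8 knockdown over control on the right, with the middle 50% of all rows shaded, their median as a line and 2-fold as dotted lines. All 10 members lie left of the 2-fold line on the left, whereas all 8 on the right lie between −0.84 and 0.24.

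In the knockdown comparison, no member reached 2-fold, where 0.449% of 10685 rows were at least 2-fold lower and 0.299% at least 2-fold higher. Cbx8, the Polycomb subunit that the hairpin targets, was at 4.74 FPKM with the control hairpin and 1.23 with the Cbx8 hairpin. Of the 8 members, 6 had negative and 2 positive changes, with a median of −0.31 against −0.006 over the 10685 rows. Nr4a1 was furthest from 0, at 15.5 FPKM with the control hairpin and 8.22 with the Cbx8 hairpin, a log2 change of −0.84. That value was the 86th lowest of the 10685, with p = 0.009 and q = 0.732 in the authors' deposited table. Nr4a2 was at 1.62 and 1.65 FPKM, so Nr4a1 made up 90.5% of the sum of these 2 receptors with the control hairpin and 83.3% with the Cbx8 hairpin.

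The Ier genes had 3 negative changes in the knockdown. Ier3 was at 217.7 FPKM with the control hairpin and 149.4 with the Cbx8 hairpin (−0.54), with p = 0.0468 and q = 0.999 in the authors' deposited table. Ier5 was at 40.3 and 31.2 FPKM (−0.36) and Ier2 at 80.1 and 66.4 (−0.27). Egr1 was at 10.4 and 8.75 FPKM (−0.22) and Egr3 at 3.03 and 2.16 (−0.35). Srf went the other way, at 26.1 FPKM with the control hairpin and 30.9 with the Cbx8 hairpin (0.24). No member had a q under 0.05 for the knockdown in the authors' deposited table, where 0.0769% of rows were lower and 0.128% higher at that limit. Without replicates, differences of this size cannot be told from differences between any pair of cultures.

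Set side by side, the 4 libraries placed bulk cells highest for each of the 8 members measured in both tables. The tables were made in separate runs, so levels across them are a description only. Egr1 was at 430.5 FPKM in bulk cells and between 8.75 and 10.4 in the other 3 libraries. Nr4a1 was at 515 in bulk cells and between 7.67 and 15.5 elsewhere, and Nr4a2 at 55.1 and between 0.731 and 1.65. The mammosphere library was lowest for 6 of these 8, and the knockdown library for Egr1 and Ier3. In the other 3 libraries, then, the Egr and Nr4a transcripts measured in both tables lay together at 0.731 to 15.5 FPKM. Bulk cells were 18.8-fold to 41.5-fold above the control shRNA library for Egr1, Egr3, Nr4a1 and Nr4a2. For Ier2, Ier3, Ier5 and Srf the same ratios ran from 1.84-fold to 2.21-fold.

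Ranks within a library avoid a scale factor common to all genes, but not differences between the runs in how single genes were estimated. The actin gene Actg1, for example, was at 1831 FPKM in bulk and 503 in mammosphere cells. It was at 36.3 FPKM with the control hairpin and 50.5 with the Cbx8 hairpin. Whether such gaps lie in the cells or in the runs was not tested, so the ranks are also a description only. Among genes listed in both tables with 1 FPKM or more in the library, Egr1 stood at percentile 98.6 in bulk, 45.1 in mammosphere, 34.9 in control and 30.6 in knockdown cells. Nr4a1 stood at 98.8, 36.3, 46.9 and 28.9 in the same order. Egr3 stood at percentile 87.2 in bulk cells and at 4.73, 10.8 and 7.11 in the other three. Ier3 held percentile 98.5, 96.9, 97.4 and 95.3, and Ier2 held 96.3, 84.4, 89.1 and 86.0. Srf stood at 87.2, 62.3, 63.7 and 68.5. Ier5 stood apart from the other Ier genes in mammospheres, at percentile 46.6 against 91.5 in bulk cells, 75.8 in control and 68.7 in knockdown cells.

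**Figure D3:**
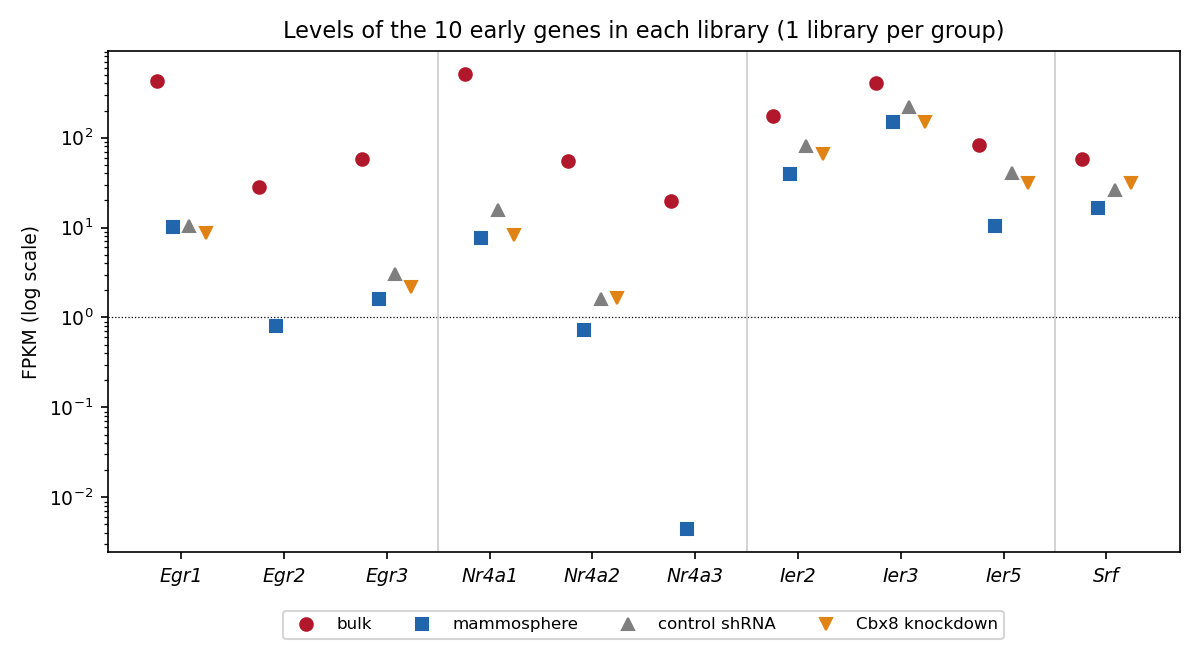
FPKM on a log axis for each member in the bulk, mammosphere, control shRNA and Cbx8 knockdown libraries, 1 point per library, with 1 FPKM as a dotted line. The bulk point is the highest of 4 for 8 genes and of 2 for Egr2 and Nr4a3, which have no shRNA points. Bulk lies 18.8-fold to 41.5-fold above the control shRNA point for the Egr and Nr4a genes with 4 points and 1.84-fold to 2.21-fold above it for the Ier genes and Srf.

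Of 6 genes taken as relatives or partners of the members, 3 were at least 2-fold lower in mammospheres and none higher (median −0.88). Egr4, the remaining Egr gene, was at 3.50 FPKM in bulk and 0.00292 in mammosphere cells. Its log2 change of −2.17 is bounded by adding 1 FPKM to a low bulk level. The Egr corepressor Nab2, itself an Egr target, was at 22.3 and 10.2 FPKM (−1.05) and its relative Nab1 at 23.4 and 13.9 (−0.71). Rxra, a receptor that pairs with Nr4a1 and Nr4a2, was at 12.1 and 18.8 FPKM, and neither measured retinoid X receptor reached 2-fold.

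The transcripts of the signalling chain above these genes mostly lay near the median of all rows. Of 19 MAP kinase cascade genes, 2 were at least 2-fold lower in mammospheres and 1 higher (median −0.33). Mapk3, encoding the kinase ERK1, was at 115 FPKM in bulk and 80.8 in mammosphere cells. The EGF receptor Egfr was at 8.06 FPKM in bulk and 0.872 in mammosphere cells (−2.28), in a row the authors did not test. The kinase Rps6ka2 was at 0.976 and 4.65 FPKM. Of 6 measured SRF cofactors, 2 were at least 2-fold lower (median −0.12): the ternary complex factor Elk4, at 9.10 and 3.75 FPKM, and the SRF-binding LIM protein Fhl2, at 71.4 and 22.4. Elk1 was at 6.42 and 7.60 FPKM and the MRTF gene Mkl1 at 16.2 and 11.6. With 1 FPKM added, no gene of the 8 for CREB and its coactivators reached 2-fold (median −0.54). Crtc2, a CREB coactivator, was lowest at 31.1 and 15.1 FPKM. Its change was −0.997 with 1 FPKM added but 2.06-fold as a plain ratio.

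SRF and MRTF target genes of the cytoskeleton were lower in mammospheres. Of 14 measured, 11 were at least 2-fold lower and none higher (median −1.57). The calponin Cnn2 was at 91.3 FPKM in bulk and 17.3 in mammosphere cells, and the myosin light chain Myl9 at 21.8 and 0.207. The Myl9 change of −4.24, beyond that of Egr2, is in a row the authors did not test. In the knockdown comparison 10 of 11 such genes had positive changes, where 51.2% of the 10685 rows were negative. Their median was 0.46, and none was past 2-fold with 1 FPKM added. None had a q under 0.05 in the authors' deposited table. Srf also had a positive change there (0.24), and a relation to these genes was not tested. Cnn2 was at 148 FPKM with the control hairpin and 239 with the Cbx8 hairpin.

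Other early genes were lower together with the members. All 8 AP-1 genes were at least 2-fold lower in mammospheres (median −4.38), including Fos at 798.6 FPKM in bulk and 10.5 in mammosphere cells. In the knockdown comparison their median was 0.11 and none reached 2-fold. Of 26 further early response genes, 25 were at least 2-fold lower in mammospheres (median −2.91), with Arc, at 196.8 and 4.20 FPKM, lowest. Gadd45b, a stress and growth arrest gene, was at 150.4 and 3.56 FPKM. The exception was Cebpd, at 3.91 and 2.65 FPKM. In the knockdown comparison none of 25 measured reached 2-fold (median 0.06). Gadd45g was at 26.3 FPKM with the control hairpin and 45.3 with the Cbx8 hairpin, and Zfp36l1 at 27.8 and 17.4.

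Genes whose pair of changes lay nearest to that of Egr1 were sought among 3990 genes tested in both tables with 5 FPKM or more. The measure was the Euclidean distance over 2 log2 changes, so it rests on 4 libraries. Among the nearest 5 were Id3, an inhibitor of helix-loop-helix factors (distance 0.19), Arc (0.33), Ifrd1, a transcriptional coregulator (0.53), and Dusp1, a MAP kinase phosphatase (0.54). Id3 was at 292.6 FPKM in bulk and 6.01 in mammosphere cells, and at 27.7 with the control and 26.4 with the Cbx8 hairpin.

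**Figure D4:**
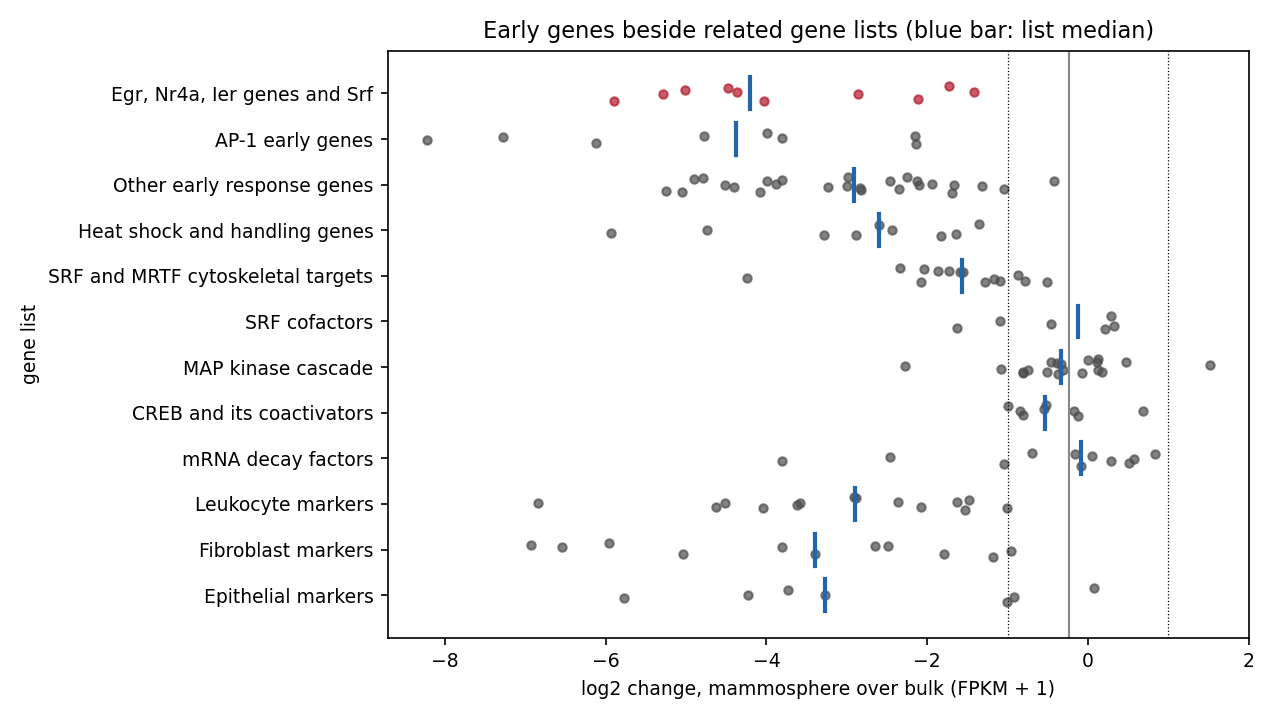
The log2 change of FPKM + 1 in mammospheres over bulk cells for each measured gene of the lists, 1 point per gene, with list medians as blue bars, the median of all rows as a grey line and 2-fold as dotted lines. The early gene lists have medians between −4.38 and −2.91, whereas the SRF cofactor, MAP kinase, CREB and mRNA decay lists have medians between −0.54 and −0.08. Low medians are not particular to early genes: they are −3.39 for fibroblast, −3.27 for epithelial and −2.90 for leukocyte markers. Heat shock genes have a median of −2.60 and the SRF and MRTF targets −1.57.

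Markers of other cells and of cell handling moved with the same comparison. Of 14 measured leukocyte genes all 14, and of 11 fibroblast genes 10, were at least 2-fold lower in mammospheres. Only 2 of these leukocyte and 4 of these fibroblast genes were in rows the authors tested. The 15 leukocyte markers summed to 280 FPKM in bulk and 8.74 in mammosphere cells, where 5 of them were listed at 0, Tyrobp, Fcer1g, Cd3e and Emr1 among them. The 12 fibroblast markers summed to 359 and 1.07 FPKM, with Lum, Thy1 and Postn listed at 0 in mammospheres. In the knockdown comparison, 3 of the 15 leukocyte markers were analysed, summing to 27.8 FPKM with the control and 41.6 with the Cbx8 hairpin. Nearly all of this was Cd14, at 27.1 and 41.0 FPKM, while Itgam and Coro1a were under 0.5 FPKM in both. The 3 fibroblast markers analysed summed to 3.76 and 1.72 FPKM. No endothelial marker was analysed there, and the 7 summed to 7.12 FPKM in bulk and 0.378 in mammosphere cells. In these bulk cultures a larger number of cells of a type and more RNA per cell cannot be told apart.

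The 10 epithelial markers summed to 951 FPKM in bulk and 73.4 in mammosphere cells, and the 8 of them analysed in the knockdown comparison to 418 with the control and 419 with the Cbx8 hairpin. Most of the bulk sum was 2 keratins: Krt18 was at 570 FPKM in bulk and 58.2 in mammosphere cells and Krt8 at 334 and 5.14. Of 7 measured markers, 5 were at least 2-fold lower in mammospheres and 0 higher. Krt19 was nearly level, at 9.08 FPKM in bulk and 9.65 in mammosphere cells. Epcam and Cdh1, which define epithelial cells, were nearly absent at 1.06 FPKM or less in all 4 libraries. Krt14, a basal keratin, was the 1 epithelial marker past 2-fold in the knockdown comparison, at 1.09 and 10.5 FPKM (q = 0.0325 in the authors' deposited table). It was at 18.8 FPKM in bulk and 0.0534 in mammosphere cells, in a row the authors did not test. Heat shock genes, which respond to handling as well as to culture, were also lower. Of the 9 with an estimate, 9 were at least 2-fold lower in mammospheres (median −2.60), with Dnajb1 at 1006 and 15.5 FPKM and Hspb1 at 1422 and 52.3. Hspa1a and Hspa1b had too many fragments for an estimate in that table. In the knockdown comparison none of the 12 reached 2-fold (median 0.01). The part of these cell types and of handling in the members' difference was not tested.

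Most members have short loci, whereas their exon numbers differ between the families. Their loci in the deposited tables had a median span of 4036 bases, against 19562 bases over the 4045 tested rows, and 8 of 10 were shorter than 10000 bases, as were 29.4% of the rows. With the tested rows split into 4 equal groups by span, 21.8% of the shortest group and 13.4% of the longest were at least 2-fold lower in mammospheres. Of the 9 members tested by the authors, 7 were in the shortest group. In GENCODE M21, the longest coding transcript of each member had a median of 2 exons, against 9 over 3582 tested genes. The Egr genes have 2 exons, Ier2 and Ier5 have 1, Ier3 has 2, the Nr4a genes have 8 and Srf has 7.

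Transcripts of early genes often carry AU-rich decay elements, whose core is ATTTA in DNA letters. After the stop codon, the members held a median of 1.95 copies per kb, against 1.32 over the 3582 genes, and 8 of 10 lay above that median. Srf, at 1.33, was barely above it. Only 3 of the 10 lay above the upper quartile of those genes, 2.57, so most members had ordinary densities. Ier3 held 5 copies in 613 bases (8.16 per kb), a density reached by 1.31% of the genes, and Nr4a1 held 3 in 543 bases (5.52 per kb), reached by 4.77%. Ier2 held none in 755 bases. Ier3, with the highest density, had the smallest change in mammospheres (−1.41), and Nr4a1, with the next highest, had the largest (−5.90, with 1 FPKM added). A relation between density and change was not tested. Of 11 mRNA decay factors, 3 were at least 2-fold lower in mammospheres (median −0.08), where 17.3% of all rows were. These 3, Zfp36, Zfp36l1 and Zfp36l2, are also among the 26 further early response genes counted above. Zfp36, which binds such elements, is itself an early gene and was at 323 FPKM in bulk and 22.2 in mammosphere cells, while the RNA-binding Elavl1 was at 18.9 and 19.5.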

How the data were processed

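The submitters' processing notes list build mm9, Cuffdiff (as 0.0.7), TopHat 1.4.0, FastQC 0.10.0 and Cufflinks 1.3.0. The sources used here give no settings and no handling of reads with several matches. The authors deposited 2 Cuffdiff tables, each with FPKM for 2 libraries, and a p-value and q-value per row, quoted only as theirs. The deposited test statistic, a score, and the deposited log2 ratios were not used. Low FPKM values had no steps of whole reads, so depth could not be recovered and no interval is given.

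Members and lists were chosen with earlier results of these data known. Where a symbol had several rows, the highest mean FPKM was taken. Changes are log2((FPKM + 1)/(FPKM + 1)), computed within a table. List counts and backgrounds used rows at 1 FPKM or more in either library, leaving out rows whose estimate failed. Rows the authors did not test were kept, and named genes include such rows beyond those marked in the text. Of the 22440 rows for bulk and mammosphere cells, 18363 were not tested. Named genes were the members, Cbx8, up to 4 genes per list with the largest change or a q under 0.05, and the 5 nearest to Egr1. Genes named outside this rule (among them Mapk3, Elk1, Mkl1, Nab1, Rxra, Elavl1, Cd14, Itgam, Coro1a, Krt19, Actg1 and markers at 0) were chosen after their values were seen. A few genes of the lists and of the nearest genes are not reported here. The counting and motif steps were tested on simulated data. Promoters came from RefSeq (GRCm38.p6) and transcripts from GENCODE M21, matched by symbol, so no coordinate was carried between builds. Alternatives were pseudocounts of 0.1 and 5 FPKM, centring, equal upper quartiles, summed rows, other fold limits and minimums, and the authors' calls. Python 3.11.15 with pandas 2.3.3 was used.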

Additional observations from a re-analysis of the deposited data

How the results depend on the processing

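With 1 library per group, no replicate could be left out, and no paired analysis was possible because each group held 1 library. All 10 members stayed at least 2-fold lower in mammospheres under the pseudocounts, centring and equal upper quartiles. At least 4-fold lower were 8 members as given, without Ier2 after centring (−1.93) and with equal upper quartiles (−1.81). Past 16-fold, Egr2 was lost under both (−3.84 and −3.88). With 0.1 FPKM, Nr4a3 had the largest change and Nr4a1 and Nr4a2 were level (both −6.05). Of 90 values of single members under alternatives, 82 stayed within 1.5 times of the value given and on the same side of 2-fold. The other 8 were Egr2, Egr3, Nr4a2 and Nr4a3 in mammospheres under the other pseudocounts. They ran from −7.57 for Nr4a3 with 0.1 FPKM to −2.31 for the same gene with 5 FPKM. Summed rows could not move any value, because each member had 1 row in a table. Centring shifted all members of a comparison by the same small amount. The count of 82 therefore says little about values near 0, where the pseudocount matters. The members' median was −5.02 with 0.1 FPKM and −2.51 with 5 FPKM, which follows from adding less or more to values near 0. In the knockdown, 1 member, Nr4a1, was lower at a 1.5-fold limit.

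Of tested rows in the mammosphere table, 654 were lower and 151 higher. Higher rows were 18.8% of these, 29.5% after centring and 37.6% with equal upper quartiles, where 276 were higher. The counts lower and higher were 1221 and 354 at 1.5-fold, 263 and 37 at 4-fold, 411 and 70 by the authors' q, and 2002 and 411 over all rows. In the knockdown table, 48 were lower and 32 higher. These were 114 and 88 with 0.1 FPKM, 18 and 14 with 5 FPKM, 233 and 224 at 1.5-fold, 10 and 8 at 4-fold, and 9 and 15 by the authors' q. Depth limits most the Nr4a3, Egr2 and Nr4a2 values under 1 FPKM.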
